A study of Carassius auratus with 4 samples.

Results

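Among the 8101 clones of a goldfish (Carassius auratus) cDNA array, 9 were named for the dopamine system. They were chosen by name: the clone's name had to hold dopamine, drd or tyrosine hydroxylase as the name of the gene itself. Of 13 clones whose names matched, 4 were set aside, 3 of them 14-3-3 activation proteins and the other HMP19, whose name mentions dopamine receptor binding as a function. The 9 comprised 5 receptor probes (drd1, D1, D5, drd2l and drd3), dopamine-beta-hydroxylase (DBH), the dopamine transporter (DAT), the dopamine- and cAMP-regulated neuronal phosphoprotein (DARPP-32) and DRG-1. The last is named as an alias of protein C6orf55 that responds to dopamine, and what it does is not given by the array's names. No clone was named tyrosine hydroxylase in full; clone 42f17 is named only TH, an abbreviation the files do not spell out, and was not counted.

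The array was used on dispersed cells of male and female goldfish pituitaries. Secretoneurin cells had received 10 nM goldfish secretoneurin, a fragment of secretogranin II that endocrine cells store and release, for 12 h in static culture, and control cells are labelled as having had no incubation. So the label of the controls does not say whether they were kept in culture for the same 12 h, and the peptide and the incubation cannot be told apart from the labels. Each of the 4 arrays carried RNA of both groups, with the secretoneurin RNA in the red dye Cy5 on replicates 1 and 3 and in the green dye Cy3 on replicates 2 and 4. Whether each sample was a culture of its own is not stated in the labels, so the p-values reflect array-to-array spread, which may be technical. In cells of mixed types, a larger share of a cell type and more RNA per cell cannot be told apart.

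Dopamine reaches the pituitary of teleost fish through nerve fibres that enter the gland directly, and in goldfish it is known as the main inhibitor of luteinizing hormone release, acting through D2-type receptors. D1-type receptors raise cyclic AMP and D2-type receptors lower it; in goldfish, D1-type receptors are known to stimulate growth hormone release. Dopamine is made by tyrosine hydroxylase and dopa decarboxylase, is turned into noradrenaline by dopamine-beta-hydroxylase, and is taken back into nerve endings by the dopamine transporter.

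No dopamine probe passed the test for a difference between secretoneurin and control cells. The limma test with Benjamini-Hochberg adjustment over 8090 probes called 0 of the 9 members, and 0 of 8090 probes in all (0%), with an adjusted p of 0.998 for every member. At an unadjusted p under 0.05, the same fit held 2 of the 9 members, drd1 and DBH, and 224 of all probes (2.77%). Both lay higher in secretoneurin cells, as 1.2% of all probes did at that p. Neither stayed under 0.05 with loess fitted within print blocks, where the unadjusted limma p was 0.257 for drd1 and 0.463 for DBH. With marked spots kept it was 0.331 for drd1 and 0.0985 for DBH. It was 0.0902 and 0.713 in the authors' deposited table, and 0.149 and 0.0515 from the first printed spots. DBH alone also rose above 0.05 with plain background subtraction, median centring, second spots only, or replicate 1, 3 or 4 left out. Both stayed under 0.05 without background correction, with scaling between arrays, without a dye effect, with duplicate spots modelled and without replicate 2. The count over all probes rested on single arrays: without replicate 2 the fit called 38 probes higher and 311 lower, and without replicate 4 it called 419 higher and 18 lower, with 0 of the 9 members among them. The 6 members with an estimate above 0 compare with 50.5% of all probes, and the members' median log2 ratio of secretoneurin over control was 0.090, against 0.0014 for all probes. The members were named with earlier results of these data known, so these comparisons with all probes are no test of the set. The median 95% confidence interval of a probe reached 0.19 to each side on the log2 scale.

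The labelled tissue showed in its hormones. The probes named growth hormone and somatotropin, 2 names of 1 hormone, were above background in both groups on all 4 arrays. The thyrotropin beta probe was too, and the GTH-II probe was above it in 2 secretoneurin and 1 control channel. The 4 hormone probes had log2 ratios between -0.062 and -0.0048, and 0 of them passed the test. Of 39 probes with neural or glial names, 22 lay above 0 and 17 below, with a median of 0.0079 and 0 called. That list was taken by names such as synaptotagmin and stathmin and is not a measure of nerve tissue alone. Of 13 red blood cell probes, 9 lay above 0, and of 29 leukocyte probes 7 did, with 0 called in either list. The part of these cells in the dopamine values was not tested. The arrays did not run in parallel. Over all probes the secretoneurin over control ratios of replicates 2 and 4, which share a dye orientation, correlated at r = -0.61, while replicates 1 and 3 correlated at 0.25. Replicate 4 also correlated negatively with replicate 1 (-0.11) and replicate 3 (-0.25). Replicate 2 correlated at -0.0065 with replicate 1 and at 0.11 with replicate 3. The dyes of these arrays are given by the labels and the file headers alike, so the direction was kept.

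The D1-type probes come first. The drd1 probe (clone 43m12), named as the dopamine D1 receptor, had log2 ratios of secretoneurin over control of 0.15, 0.45, 0.39 and 0.32 on replicates 1 to 4. All 4 arrays lay above 0, in both dye orientations. Its fitted log2 ratio was 0.32 ± 0.070 (SE, n = 4; 95% confidence interval 0.13 to 0.52), with an unadjusted limma p of 0.0091 and an adjusted p of 0.998. It was the 13th smallest unadjusted p of all 8090 probes and the 44th highest estimate. The signals behind it were not well above their local background. In secretoneurin cells the drd1 signal was 441, 547, 260 and 835 scanner units on replicates 1 to 4, and in control cells 906, 142, 452 and 281. These are raw intensities, to be read within a dye and not between the groups. Over all clones Cy3 read higher than Cy5 on all 4 arrays, with medians of 591 and 221 on replicate 1. The limit used for a signal well above background, the local background plus 2 background standard deviations, was 572, 663, 299 and 1184 units for the secretoneurin channels and 1126, 385, 853 and 384 units for the control channels. So drd1 passed this limit in 0 of its 8 channels, and no fold is given for it. Of all probes, 14.5% were like it in this. The probe was not faint beside the others: its average intensity after background correction lay at percentile 67.0 of all probes. With a limit of 1 background standard deviation, drd1 passed in 4 secretoneurin and 2 control channels.

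The D1 probe (clone 43j04) carries the name of the same receptor and averaged near 0. Its 2 printed spots had opposite signs on all 4 arrays and differed by 0.47 on average, so its ratios are means of spots that disagree. Its log2 ratios were 0.056, 0.0081, 0.066 and -0.18 on replicates 1 to 4, and its estimate was -0.012 ± 0.061 (SE, n = 4), with a 95% interval of -0.18 to 0.15. The drd1 ratio was higher than the D1 ratio on 4 of 4 arrays, by 0.089, 0.44, 0.33 and 0.50. This pair was singled out after its values were seen, so the differences are given without a test. With loess fitted within print blocks the estimates were 0.14 for drd1 and 0.0053 for D1. The files do not say whether both clones stand for 1 gene or for different copies of it. The D5 probe (clone 43p03), also named D1B, is the other D1-type receptor. Its log2 ratios were -0.10, 0.048, 0.042 and -0.033, with 2 arrays on each side of 0, and its estimate was -0.011 ± 0.059 (SE, n = 4; 95% interval -0.17 to 0.15).

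The D2-type receptors split by dye or by array. The drd2l probe (clone 43k12), a D2-like receptor, had log2 ratios of 0.38, -0.074, 0.26 and -0.037 on replicates 1 to 4. Both arrays with secretoneurin RNA in Cy5 lay above 0 and both arrays with it in Cy3 just below. The mean was 0.32 with secretoneurin in Cy5 and -0.055 with it in Cy3. In the fit this gave a log2 ratio of secretoneurin over control of 0.13 ± 0.056 (SE, n = 4; 95% interval -0.020 to 0.29) and a dye effect, Cy5 over Cy3, of 0.19 ± 0.056. That dye effect had the smallest unadjusted limma p among the members, 0.026, with an adjusted p of 0.716, and 0 of 8090 probes (0%) passed for the dye.

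The drd3 probe (clone 43l12), the dopamine D3 receptor, had log2 ratios of 0.29, 0.17, -0.0042 and 0.55. Replicate 3 lay at 0 and the other 3 above it, with the highest on replicate 4. Its estimate was 0.25 ± 0.097 (SE, n = 4), the widest error of the members, and the 95% interval of -0.014 to 0.52 took in 0. Without replicate 4 the drd3 estimate was 0.16. The symbols drd2l and drd3 are 2 of the 9 that occur in the RefSeq gene table for goldfish.

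DBH (clone 43o12), the enzyme that converts dopamine to noradrenaline, had log2 ratios of 0.26, 0.051, 0.32 and 0.18 on replicates 1 to 4. Like drd1 it lay above 0 on all 4 arrays, which 5.17% of all probes measured on 4 arrays did. Replicate 2 was close to 0. The estimate was 0.20 ± 0.057 (SE, n = 4; 95% interval 0.048 to 0.36), with an unadjusted limma p of 0.022 and an adjusted p of 0.998. In secretoneurin cells the DBH signal was 346, 589, 206 and 750 scanner units, and in control cells 639, 164, 366 and 244. Like those of drd1, these are raw intensities in different dyes. The DBH signal was well above background in secretoneurin cells on replicates 1 and 3 and in control cells on none.

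The remaining members showed no array pattern of this kind. DAT (clone 43n12), which takes dopamine back up from outside the cell, had log2 ratios of 0.12, -0.063, 0.023 and 0.28, and an estimate of 0.090 ± 0.080 (SE, n = 4). Without replicate 4 the DAT estimate was 0.0045 and without replicate 2 it was 0.18. DARPP-32 (clone 55n15), an inhibitor of protein phosphatase 1 that is phosphorylated when dopamine raises cyclic AMP in mammalian neurons, had ratios of 0.090, 0.15, -0.088 and 0.010, and an estimate of 0.040 ± 0.065. DRG-1 (clone 59d22) had ratios of 0.051, -0.14, -0.068 and -0.13, and an estimate of -0.072 ± 0.056, the lowest of the 9. All 3 intervals took in 0. No member lay below 0 on all 4 arrays, as 5.54% of all probes did.

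**Figure D1:**
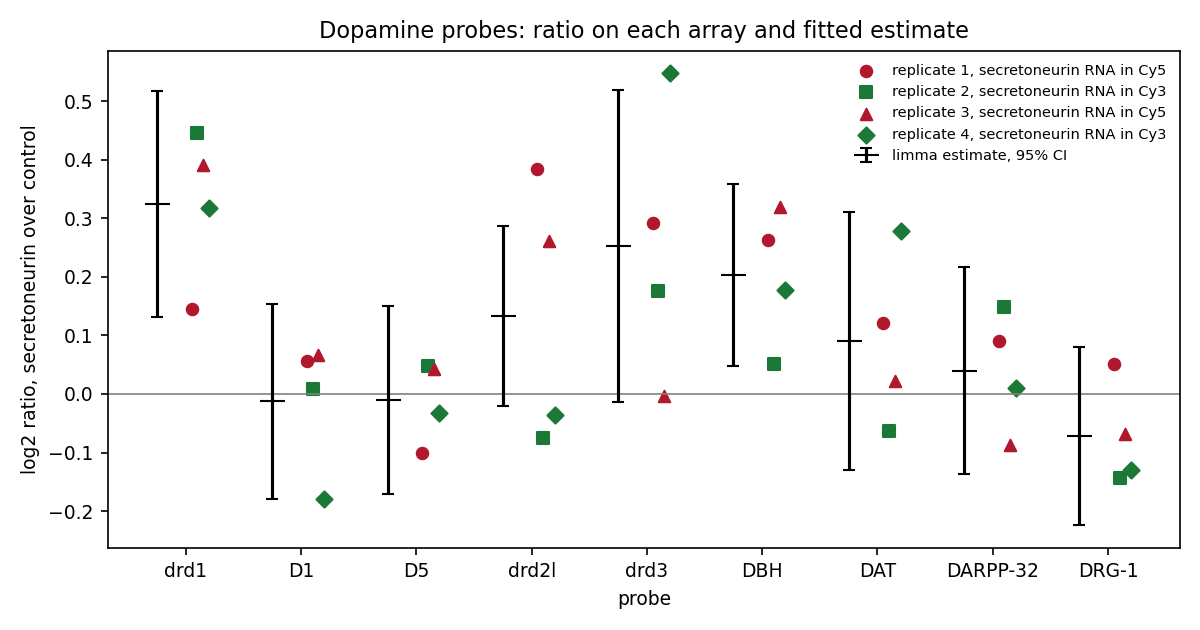
Log2 ratio of secretoneurin over control (y axis) for the 9 dopamine probes (x axis) on each of the 4 arrays, with the limma estimate and its 95% confidence interval as a bar to the left; red points are arrays with secretoneurin RNA in Cy5 and green points arrays with it in Cy3. The drd1 and DBH points lie above 0 on all 4 arrays, and the drd2l points fall into a red pair above 0 and a green pair just below.

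**Figure D2:**
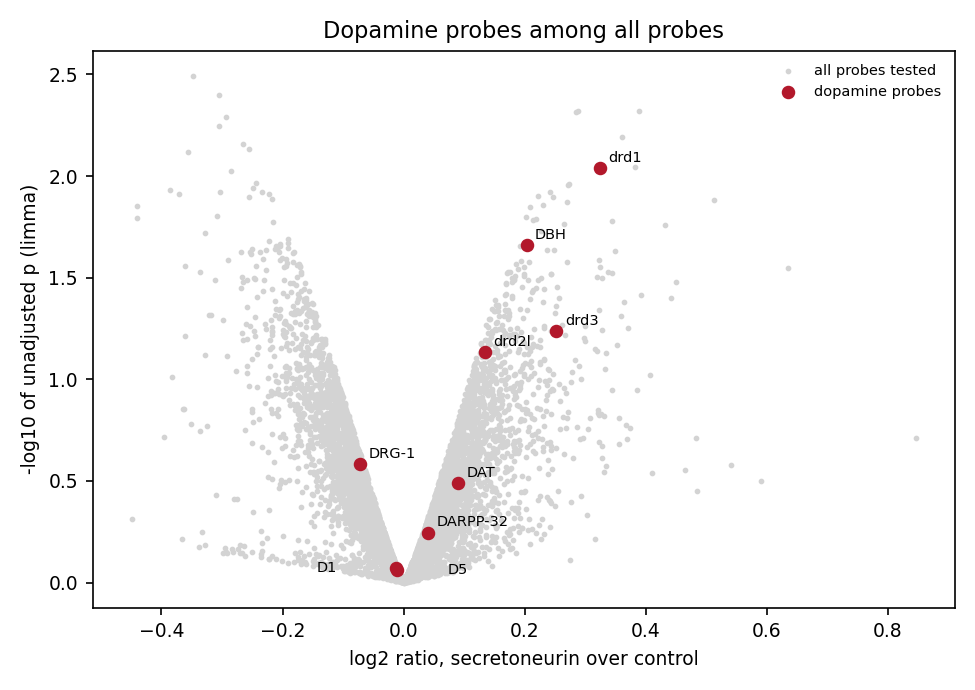
Fitted log2 ratio of secretoneurin over control (x axis) against -log10 of the unadjusted limma p (y axis) for all 8090 probes in grey and the 9 dopamine probes in red. The drd1 and DBH probes lie on the right-hand arm, where many other probes lie too, and 0 probes passed after adjustment.

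Detection of the dopamine probes followed the dye. Over the 9 probes and 4 arrays, 12 of 36 secretoneurin channels and 4 of 36 control channels were well above background. All 16 of these were Cy5 channels, 12 of 18 with secretoneurin RNA and 4 of 18 with control RNA, and 0 of the 36 Cy3 channels passed. With a limit of 1 background standard deviation the counts were 22 secretoneurin and 23 control channels of 36, so the excess in secretoneurin cells was not seen at that limit. Over all probes, 69.1% of secretoneurin and 69.4% of control channels passed that lower limit. At the limit of 2 standard deviations, Cy5 of all probes was above background in 63.8% of secretoneurin channels and 42.4% of control channels. Cy3 was above it in 15.9% of secretoneurin and 17.9% of control channels. Both groups had both dyes on 2 arrays each, so the dye alone does not separate them, but the Cy5 arrays of secretoneurin cells are other arrays than those of control cells. The array and the group cannot be told apart in these counts.

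Of the 9 members, 6 (D1, drd2l, drd3, DBH, DAT and DARPP-32) were above background on at least 1 array in secretoneurin cells and on none in control cells, where 32.2% of all probes were. D5 was above it on 1 secretoneurin and 2 control arrays, and DRG-1 on 2 of each; in all, 2 of the 9 were above it at least once in both groups, against 50.2% of all probes. None of the 9 was above it on all 4 arrays in both groups, as 10.4% of all probes were. The D5 control channel of replicate 4 passed by less than 1 unit, 170.2 against a limit of 169.8. Spots without a name, taken as empty, gave a further level. The median of these empty spots, by array and dye, was exceeded in 31 of 36 secretoneurin and 32 of 36 control channels of the members. Their 95th percentile was exceeded in 3 of 36 and 2 of 36. The shares of all probes past these 2 levels were not counted. Spots named buffer had higher medians than the empty spots in both dyes on all 4 arrays, and the members were not counted against them.

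The probes detected in secretoneurin cells alone passed there on 1 or 2 of 4 arrays. Mean log2 signals were taken after loess and Aquantile scaling of average intensity between arrays. That scaling was no part of the main fit. The mean log2 signal of drd3 was 8.09 in secretoneurin and 7.84 in control cells. That of DBH was 8.23 in secretoneurin and 8.02 in control cells. For each probe the 2 means differ by its fitted log2 ratio, so they restate that ratio and are no separate measure. Since their secretoneurin signals were below the limit on replicates 2 and 4, no fold is given for drd3 or DBH, nor for D1, drd2l, DAT and DARPP-32. Log2 ratios printed for these probes describe the spots and are not measured folds.

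**Figure D3:**
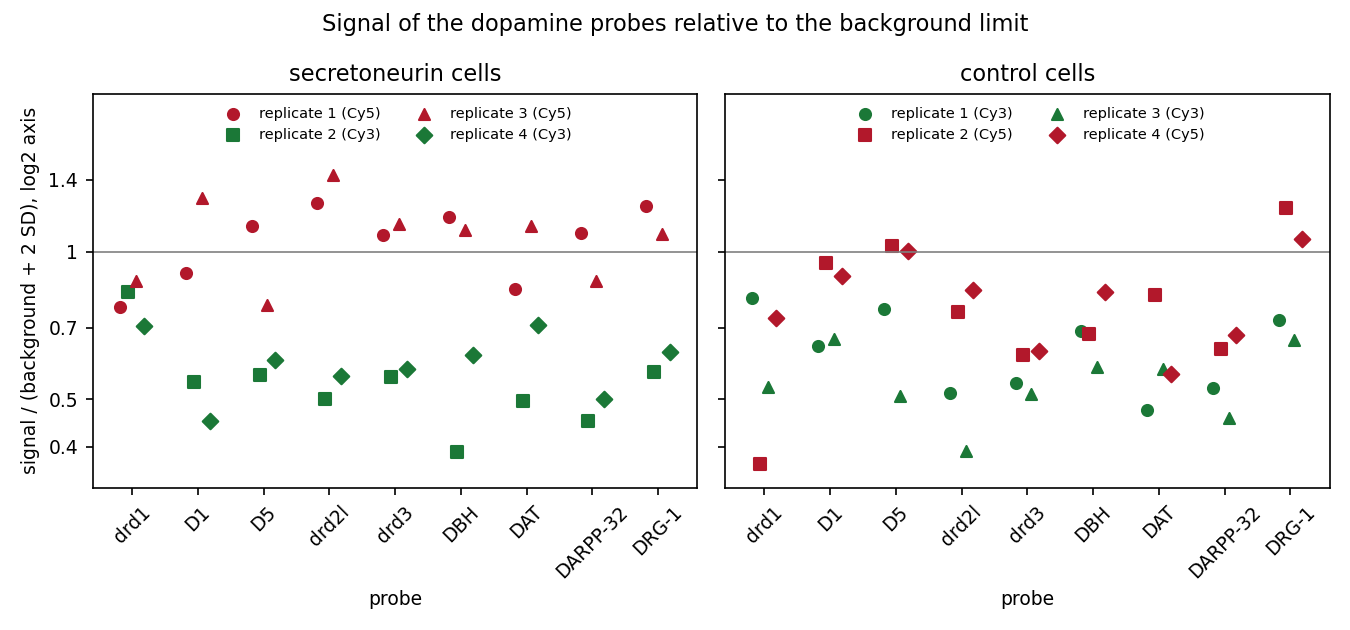
Signal divided by the background limit (local background plus 2 background SD; y axis on a log2 scale, line at 1) for the 9 dopamine probes on each array, in secretoneurin cells on the left and control cells on the right; red points are Cy5 channels and green points Cy3 channels. Of the 16 channels above the line, all are red, 12 in secretoneurin and 4 in control cells.

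The estimates above 0.08 came from 1 region of the array. The arrays were printed in 48 blocks, 12 rows of 4, and the 2 spots of each clone lay in blocks of the same row. Of the 9 members, 5 (drd1, drd2l, drd3, DBH and DAT) lay in the first print row, with estimates of 0.090 to 0.32 and a median of 0.20. The other 4 (D1, D5, DARPP-32 and DRG-1), in rows 3, 9 and 10, had estimates of -0.072 to 0.040 and a median of -0.011. The first row as a whole was shifted the same way: 475 of its 668 probes (71.1%) had an estimate above 0, with a median of 0.073, the highest of the 12 row medians. Its medians on replicates 1 to 4 were 0.073, 0.023, 0.072 and 0.15. The blocks within the row were not shifted alike on each array. The block with the first spots of drd1, drd2l and DBH had medians of 0.26, -0.12, 0.081 and -0.11 on replicates 1 to 4. The block with their second spots had 0.055, 0.048, 0.11 and 0.16.

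The neighbours of drd1 and DBH lay above 0 too. In the blocks of drd1, drd2l and DBH, 217 of 336 other probes had an estimate above 0, with a median of 0.064, and in those of drd3 and DAT 256 of 330 did, with a median of 0.076. Among the 56 probes nearest to drd1 and DBH by row within the block, the median was 0.13, and 45 lay above 0. When loess was fitted within each print block in place of the whole array, the drd1 estimate was 0.14, drd3 0.16, DBH 0.052, DAT 0.032 and drd2l 0.029. The 5 estimates kept their sign, at 0.029 to 0.16 with a median of 0.052, and the 4 in other rows were -0.064 to 0.050. All of these are log2 ratios of secretoneurin over control, and no probe passed in that fit either.

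**Figure D4:**
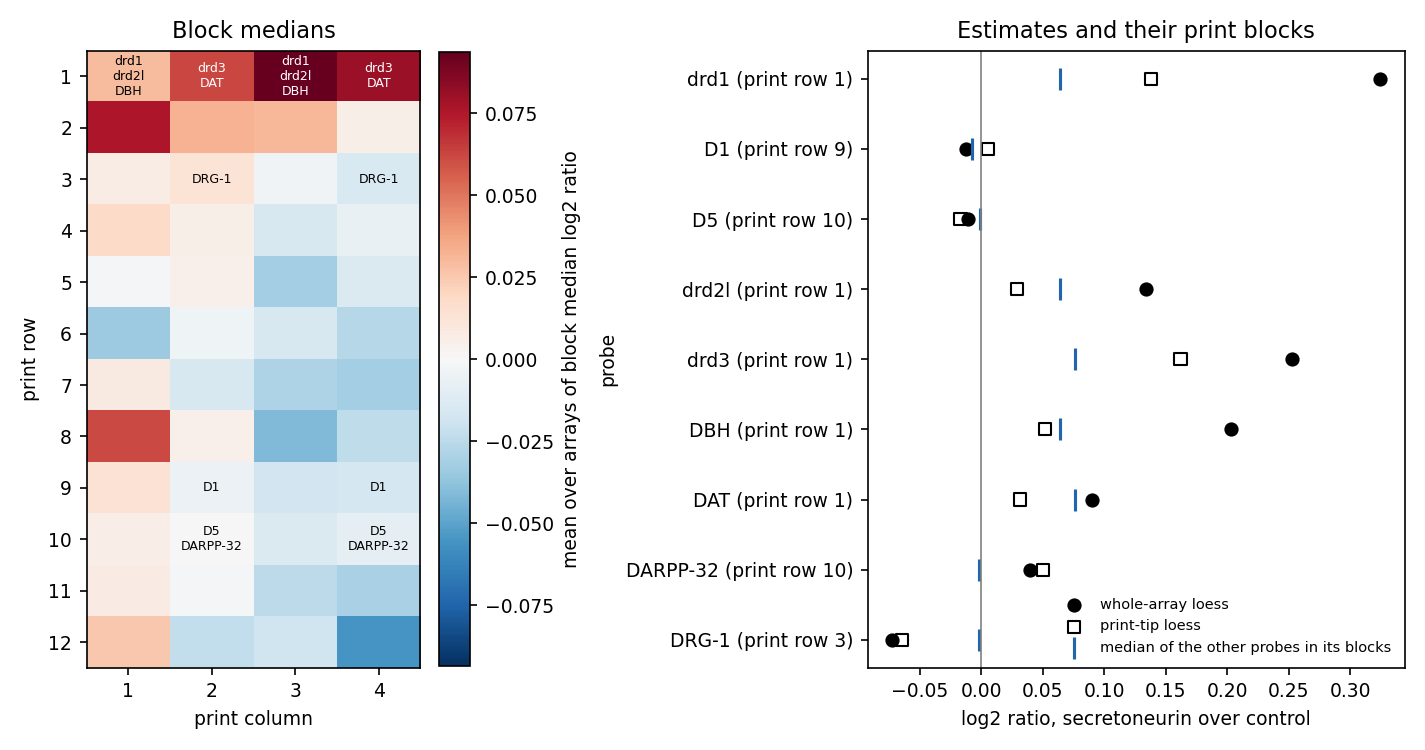
Left, mean over the 4 arrays of the median log2 ratio of secretoneurin over control in each of the 48 print blocks (colour), with the blocks of the dopamine probes named; right, each probe's estimate with loess over the whole array (filled circle) and within print blocks (open square), and the median of the other probes in its blocks (blue bar). The first print row holds drd1, drd2l, drd3, DBH and DAT and the highest row median, 0.073, and these 5 probes move towards 0 with loess within blocks.

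Each clone was printed in 2 spots, and these differed by amounts as large as the estimates. Of 72 spot positions over the 4 arrays, 1 spot each of drd1 and DBH on replicate 2, and of drd2l and DAT on replicate 3, was taken as marked to be ignored and left out. The files do not document the coding of this mark. The value 0 was read as the mark, and the spots that carry it had a higher median local background than the rest in both dyes on all 4 arrays. In the 32 pairs that remained, the 2 spots had ratios of opposite sign in 13. The share of such pairs over all probes was not counted. The members' median difference was 0.17. Over all probes the median difference was 0.22, 0.20, 0.19 and 0.17 on replicates 1 to 4, so the members were not unusual in this. Their largest difference was 0.71, for DBH on replicate 1, where the spots read 0.62 and -0.091. The 95th percentile of all probes on that array was 0.73. For drd1 the 2 spots lay above 0 wherever measured: 0.033 and 0.26 on replicate 1, 0.48 and 0.30 on replicate 3, and 0.28 and 0.35 on replicate 4, with 0.45 from the single spot on replicate 2. The 2 spots of D1 had opposite signs on all 4 arrays. For DBH the first spots alone gave an estimate of 0.36 and the second spots alone 0.095. With the marked spots kept, the drd1 estimate was 0.14, against 0.32 without them, and that of drd2l 0.36, against 0.13.

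**Figure D5:**
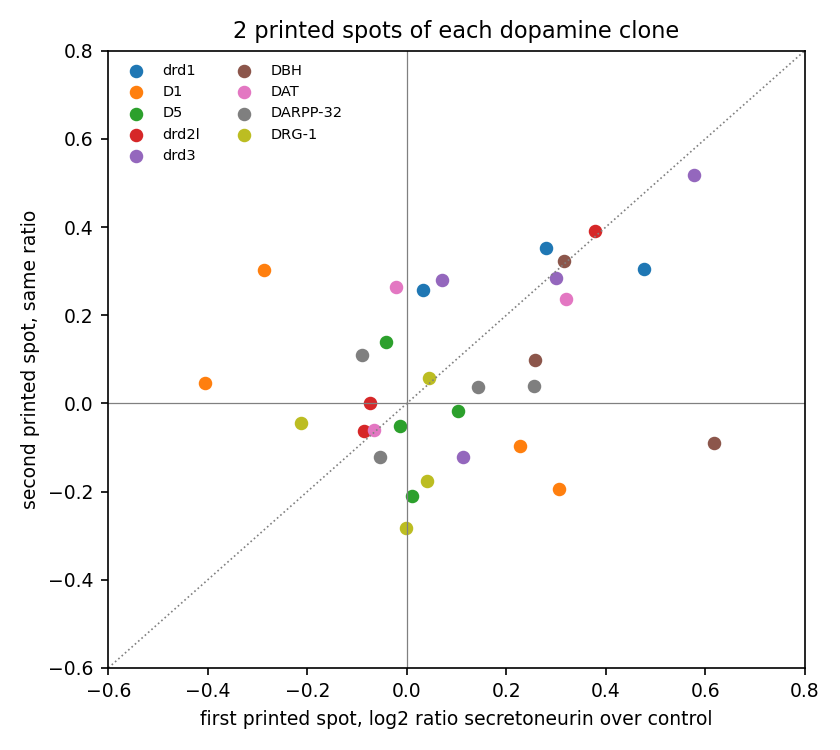
Log2 ratio of secretoneurin over control of the first printed spot (x axis) against the second printed spot (y axis) of each dopamine clone, 1 point per array, with the line of equality dotted. Of the 32 pairs, 13 lie in the quadrants of opposite sign, among them all 4 of D1, and the 3 drd1 pairs lie in the upper right.

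In the authors' deposited table of log2 ratios, turned to secretoneurin over control, drd1 read -0.081, 0.996, 0.57 and 0.058 on replicates 1 to 4 with the marked spots left out. With both spots averaged, replicate 2 of drd1 read 0.13 in the authors' deposited table. DBH read -0.012, -0.048, 0.44 and -0.18 in the authors' deposited table with the marked spots left out, so only replicate 3 lay above 0 there. The same fit on that table, also without the marked spots, gave 0.38 for drd1, 0.28 for drd3 and 0.050 for DBH, and no member passed. Its normalization stayed unknown.

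The wider dopamine pathway showed no called probe either. Of 5 probes for synthesis and breakdown of dopamine and related amines, 3 lay above 0 and 2 below, with a median log2 ratio of 0.0073, against 0.0014 for all probes. Dopa decarboxylase (DDC), which makes dopamine from L-dopa, had ratios of 0.66, 0.031, 0.083 and 0.17, above 0 on all 4 arrays with replicate 1 the highest. Its estimate was 0.24 ± 0.11 (SE, n = 4), and all of its channels lay below the background limit. Monoamine oxidase (MAO), which breaks dopamine down, had an estimate of 0.13 ± 0.10. The clone named TH had ratios of -0.014, -0.44, 0.22 and 0.18, and an estimate of -0.012 ± 0.13. Of 12 probes for 14-3-3 proteins, which bind and activate tyrosine hydroxylase, 4 lay above 0 and 8 below, with a median of -0.024. The 2 with the smallest p were 14-3-3 zeta, at 0.11, and 14-3-3 epsilon, at -0.12.

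Downstream of the receptors, 4 of 11 probes for G proteins and their regulators lay above 0, with a median of -0.018. The 2 of smallest p were both named G protein gamma-3, with estimates of -0.071 and 0.091, so clones of 1 name lay on either side of 0. Of 7 probes for cyclic AMP, protein kinase A and protein phosphatase 1, 5 lay above 0, with a median of 0.032. Clones named for adenylate cyclase activating peptides are among them, at 0.032 and 0.011, and are not parts of the pathway downstream of dopamine receptors. A-kinase anchor protein 9, a scaffold for protein kinase A, had an estimate of 0.067 and a clone of protein phosphatase 1 regulatory subunit 14B one of -0.096, while another clone of that name had 0.14. Of 11 probes for receptors of gonadotropin-releasing hormone, somatostatin and prolactin-releasing peptide, other regulators of the same pituitary cells, 6 lay above 0, with a median of 0.035. The somatostatin receptor sst2, which lowers growth hormone release, had an estimate of -0.18 ± 0.064 and an unadjusted limma p of 0.046. It was the 1 probe of these lists under 0.05, and its adjusted p was 0.998. The sst2 ratios were mixed, at -0.50, -0.0099, -0.33 and 0.13 on replicates 1 to 4. Its dye effect, Cy5 over Cy3, was larger, at -0.24 ± 0.064, and its name says that vector was not removed. The receptor sst3b had an estimate of -0.085 ± 0.052 and lay below 0 on all 4 arrays. HMP19, left out of the members, had an estimate of 0.15 ± 0.073.

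By root mean square difference over the 4 array ratios, among 2342 named probes, drd1 was most like EPD (0.099), N-acetylglucosamine kinase (0.14) and 4-hydroxyphenylpyruvate dioxygenase (0.15). EPD had log2 ratios of 0.17, 0.39, 0.21 and 0.37. The DBH pattern was most like the 49 kDa subunit of NADH-ubiquinone oxidoreductase (0.036), ER lumen protein retaining receptor 3 (0.047) and activated RNA polymerase II transcriptional coactivator (0.062). For drd2l the nearest was brain creatine kinase ckb (0.015), whose ratios of 0.40, -0.053, 0.25 and -0.033 show the same split by dye, followed by a TATA box binding protein-associated factor and initiation factor 1A. For drd3 it was polyadenylate-binding protein 1 (0.069), then SNAP-25B and the eta subunit of T-complex protein 1. D1 was nearest to citrate synthase (0.013), a Cha-C like protein and ribosomal protein L38. D5 was nearest to calmodulin (0.016), transmembrane emp24 domain protein 7 and a heat shock protein. DAT was nearest to epoxide hydrolase 1 (0.025), the kinase RIO1 and regulating synaptic membrane exocytosis protein 1. DARPP-32 was nearest to calpain-2 (0.013), ribosomal protein S11 and beta-globin, and DRG-1 to the PrRP receptor (0.030), regulating synaptic membrane exocytosis 2 and SAP18. These distances describe 4 arrays and carry no test.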

How the data were processed

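Per the file headers, the deposited scanner files give, for either dye, a linear spot intensity and a local background that was not subtracted. The authors also deposited a table of log2 ratios, with no stated method. Set against the scanner ratios after the background correction and loess given below, it runs as Cy5 over Cy3 (r of 0.84 to 0.86 over single spots). Against the raw scanner ratios r was 0.55 to 0.71. Its column medians were 0.0037, 0.031, 0.0037 and -0.046. The deposited table served as an alternative.

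Background was corrected with normexp (offset 50), and log2 ratios were normalized within each array by loess with a span of 0.3 and 4 iterations, using R 4.3.3 and limma 3.58.1. Spots carrying the scanner's ignore mark, read as a value of 0 (421, 720, 981 and 718 on the 4 arrays), and 1126 control or empty spots were left out. Clones named salmon sperm kit and poly a kit were not recognised as controls. They stayed in the loess and among the clones counted and the probes tested. Each clone's 2 spots were averaged, and 8090 probes with values on at least 3 arrays were tested. Each fit had a term for secretoneurin and a dye term per probe, leaving 2 residual degrees of freedom, with eBayes, two-sided tests and Benjamini-Hochberg adjustment at 0.05. The number of arrays limits the precision.

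By a pattern over the clone names, 3491 probes were counted as named, and the array's names were kept. Clones named salmon sperm kit and poly a kit also passed as named. The members and gene lists were chosen with earlier results of these data known. The lists were trimmed by name alone after the files were read, when the hormone-receptor list was added. Named probes were all members, the 2 of smallest p per list where none passed, and the 3 nearest patterns. The alternatives were other background, loess and scaling methods, the authors' table, no dye effect, dim probes left out, marked spots kept, duplicate spots modelled, single printed copies and each array left out. No sequences or genome positions are shown, since none came with the files used here.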

Additional observations from a re-analysis of the deposited data

How the results depend on the processing

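No member passed under any alternative run, and the lowest adjusted limma p was 0.077, for drd1 with 1 array left out. Leaving out 1 array moved the count of probes called from 0 to at most 419 higher and 311 lower: without replicate 2, 38 were higher and 311 lower, and without replicate 4, 419 higher and 18 lower. The estimates of drd1, drd2l, drd3, DBH and DAT stayed above 0 in every fit and that of DRG-1 below, although the plain average of arrays 3 and 2 was -0.020 for DAT; drd1 ranged from 0.14 (print-tip loess) to 0.62 (plain subtraction). Estimates near 0 changed sign. D1 was 0.057 without background correction, 0.0053 with print-tip loess and 0.015 from the second spots, and D5 was 0.040 without background correction, 0.0057 with median centring and 0.014 from the first spots. With 1 array left out, drd3 ranged from 0.16 to 0.35, DAT from 0.0045 to 0.18, D1 from -0.059 to 0.035, D5 from -0.046 to 0.025 and DARPP-32 from -0.0043 to 0.084. The cause was not tested. Dye effects, Cy5 over Cy3, that changed sign were as follows. Without background correction they were 0.031 (drd1), 0.043 (D5) and 0.0060 (DAT), and with plain subtraction 0.0067 (DAT). With print-tip loess they were 0.0021 (D5) and 0.073 (DAT), and with median centring 0.0030 (DAT) and 0.038 (DARPP-32). In the authors' deposited table they were 0.0047 (D5) and 0.17 (DAT), and with marked spots kept 0.13 (drd1) and 0.044 (DAT). From the first spots D5 was 0.042, and from the second D1 was -0.16 and DAT 0.027. With 1 array left out, dye effects ranged from -0.12 to 0.0050 (drd1), -0.054 to 0.017 (D5), -0.10 to 0.068 (DAT) and -0.083 to 0.0052 (DARPP-32). At background plus 1 SD, 22 secretoneurin and 23 control channels of 36 were above it, at 3 SD 1 and 0, and with both spots required 6 and 1. Over all probes, 69.1% of secretoneurin and 69.4% of control channels were above it at 1 SD. At 3 SD these shares were 22.8% and 18.2%, and with both spots required 31.1% and 23.3%. With dim probes left out, those above background on fewer than 3 arrays, only D5 and DRG-1 of the members were tested. Spot medians were not run, since 1 intensity column is given per dye. The single-copy and array-pair alternatives were chosen after seeing the data. The fit on ratios within arrays is itself paired, so no further block was fitted.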
